A study of Mus musculus with 8 samples.

Results

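Neurotrophins are small secreted growth factors that were first known for keeping neurons alive, and several of them are also made or sensed by blood vessels. They bind Trk receptor tyrosine kinases: brain-derived neurotrophic factor (BDNF) and neurotrophin 5 bind TrkB, and neurotrophin 3 binds TrkC. They also bind the p75 receptor, while their uncleaved precursors bind p75 together with sortilin. The 6 genes described here are the ligand genes Bdnf and Ntf3, the receptor genes Ntrk2 (TrkB), Ntrk3 (TrkC) and Ngfr (p75), and the co-receptor gene Sort1 (sortilin), out of 54532 genes in the deposited table. They were found by their symbols. Ntrk2 was chosen because its fall in hyperoxia was the largest of the series, so its difference between the groups is described below without a test. The other 5 were taken as its ligands and fellow receptors.

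The libraries were bulk RNA-seq of lung endothelial cells (ECs) from wild-type C57BL/6J mouse pups. The 4 normoxia pups or pools lived in room air (21% O2) and the 4 hyperoxia ones in 80% O2, in both cases from postnatal day 0 to day 14, when lungs were harvested. Cells that bound CD45 beads were discarded, and the remainder that bound CD31 beads was kept, which enriches for ECs without excluding other lung cells. Of the 8 libraries, 5 held at least 100 counts of both Xist and the Y-linked genes examined, and no source used here states how many pups went into one library. If the libraries of a group do not come from separate animals, the p-values measure only the spread between libraries.

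Total counts ran from 16098086 to 18300730 per library. The 13 pan-endothelial markers summed to 4620 to 4910 FPKM in normoxia and 4846 to 5172 FPKM in hyperoxia, and Cdh5 alone averaged 972 and 955 FPKM. FPKM divides a count by the length of the gene and by the size of the library. Markers of other lung cells were also present and differed between the groups. The 10 epithelial markers, with none at 0, summed to 3.86 to 7.22 FPKM in normoxia and 12.2 to 37.1 FPKM in hyperoxia. All 8 of those tested were higher in hyperoxia. Some of these markers, such as Epcam, cleared the filter on low counts mainly through hyperoxia, so nothing is read from that count. Krt18 and Cdh1 were the most abundant of them (Krt18 from 1.79 ± 0.787 to 4.28 ± 1.43 FPKM, edgeR adjusted p = 0.0117, and Cdh1 from 0.52 ± 0.181 to 5.04 ± 2.21 FPKM, adjusted p = 0.00013). Hyperoxia 3 had the 12.2 FPKM, against at least 34.7 FPKM in the other hyperoxia libraries. The 10 markers of alveolar type 2 cells were far more abundant, at 140 to 258 FPKM in normoxia and 589 to 1928 FPKM in hyperoxia, and all 10 were higher. Leukocyte markers summed to 97.0 to 191 FPKM in normoxia and 134 to 344 FPKM in hyperoxia. Of the 9 tested, 2 (22.2%) were higher and 1 (11.1%) lower. Over all genes tested the shares were 18.5% higher and 17.1% lower, so nothing is read from the leukocyte count. The 12 mural markers summed to 14.0 to 23.9 FPKM in normoxia and 28.1 to 47.8 FPKM in hyperoxia, and the 10 fibroblast markers to 22.6 to 45.4 and 33.9 to 85.1 FPKM. Rgs5 and Acta2 led the mural list, Npnt and Col3a1 the fibroblast list, and all 4 rose (edgeR adjusted p = 0.000109, 0.000276, 0.011 and 0.0247). Of 11 mural markers tested 7 were higher and 4 did not pass. Of 8 fibroblast markers tested 6 were higher and 2 did not pass, though Dcn entered the test mainly through hyperoxia. Fewer cells of a type and less RNA per cell cannot be told apart in such bulk samples.

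Ntrk2 (ENSMUSG00000055254) lies on the plus strand of chromosome 13, at 58806569 to 59133970 in mouse build GRCm38. The GENCODE M21 annotation gives it 10 transcripts, 7 of them coding, with 5 distinct coding lengths between 1398 and 2463 bases. TrkB is known in a full-length form with a kinase and in truncated forms without it, and a count per gene does not separate them. Coding bases make up 13.8% of the 19292 exon bases, so most of the length is untranslated. No exon of another gene overlaps its exons. The 250 bases before its start are shown because Ntrk2 is the gene that the other results are set against.

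Ntrk2, RefSeq promoter table, GRCm38.p6, chr13:58806319-58806568, plus strand: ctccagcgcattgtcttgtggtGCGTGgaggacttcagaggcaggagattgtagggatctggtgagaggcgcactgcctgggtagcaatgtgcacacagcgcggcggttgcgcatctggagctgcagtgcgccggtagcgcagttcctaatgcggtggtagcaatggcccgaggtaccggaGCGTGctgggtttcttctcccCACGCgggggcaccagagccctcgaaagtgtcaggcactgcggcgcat

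Capitals mark the 3 matches, on either strand, to GCGTG, one form of the core that hypoxia-inducible factors recognise. Of the 32851 windows of this length in the table, 28.2% hold at least 1 such match. The other form of that core, ACGTG, has no match here and is found in 16.6% of windows. TGACGTCA, the cAMP response element, also has none (1.55% of windows), nor have TGACNNNGC, the core of the antioxidant response element (10.2%), and GGGCGG, the GC box (32.7%). The Ntrk2 window holds 19 CpG dinucleotides, and 80.3% of windows hold fewer. A match is a matter of letters only, and an absent one says nothing of the factor.

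Ntrk2 was abundant in normoxic ECs and low in hyperoxic ECs. In normoxia it stood at 222, 223, 212 and 218 CPM (counts relative to the TMM-normalized library size) in libraries 1 to 4. In hyperoxia it stood at 19.9, 29.3, 32.4 and 26.4 CPM. The lowest normoxia library therefore lay far above the highest hyperoxia library. The means were 219 ± 4.86 and 27.0 ± 5.35 CPM (SD, n = 4 each), and the log2 fold change was -3.02 (SE 0.119), which is 8.10-fold lower. The relative spread was wider in hyperoxia, where library 1 was lowest and library 3 highest. Of all 15564 genes tested, 1.36% were lower by the edgeR test and at least 2-fold in size, and 35.4% had groups that did not overlap in either direction. The nearest gene behind Ntrk2 was 4933427I22Rik, with a log2 fold change of -2.97 from only 1.05 CPM in normoxia. When the ranking was limited to protein-coding genes at 10 CPM or more, Glb1l3 came next at -1.94.

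**Figure D1:**
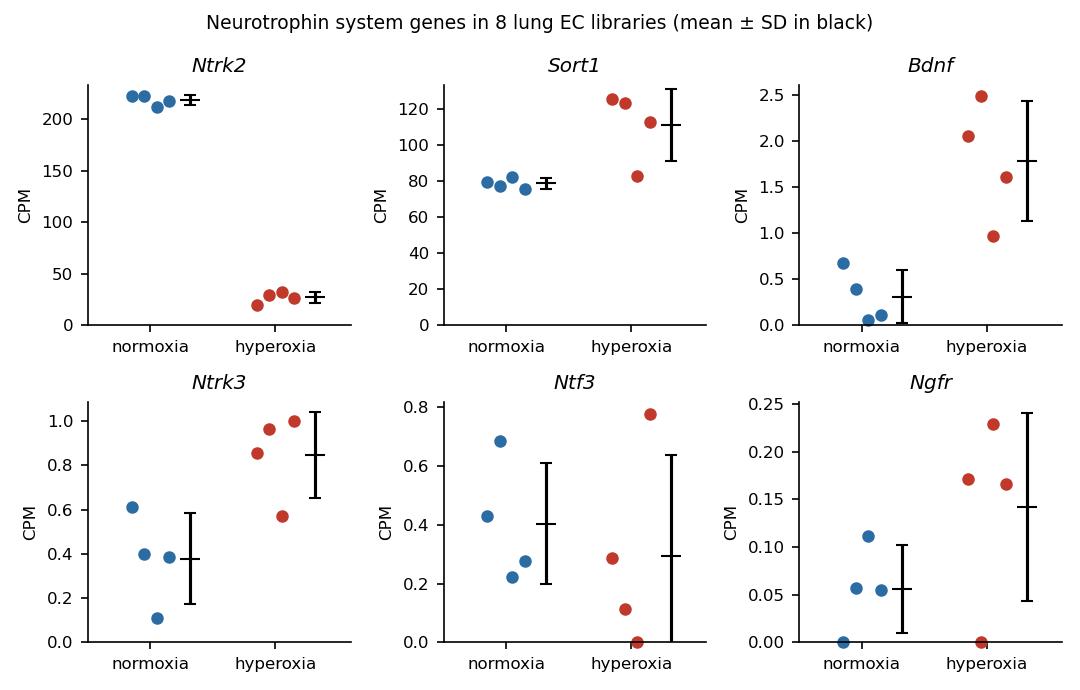
CPM of the 6 neurotrophin system genes in each of the 4 normoxia (blue) and 4 hyperoxia (red) libraries, in the order of their numbers, with the group mean ± SD in black; the scale differs between genes and starts at 0. Ntrk2 sits between 212 and 223 CPM in normoxia and between 19.9 and 32.4 CPM in hyperoxia, while Ntrk3, Ntf3 and Ngfr stay below 1 CPM in every library.

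The level of Ntrk2 was also set beside markers of the cells that could carry it. As a percentage of the FPKM of Cdh5, the VE-cadherin gene, Ntrk2 was at 1.09 to 1.23% in normoxia and 0.112 to 0.170% in hyperoxia. Cdh5 itself had a log2 fold change of -0.03 (edgeR adjusted p = 0.658). Of 8 markers of general capillary (gCap) cells, a main EC type of the alveolus, 6 were lower and 1 was higher (the most abundant, Plvap, was not past the threshold, with an adjusted p of 0.884), and the median of their log2 fold changes was -0.64. Of 8 arterial markers 5 were lower and none higher (median -0.53), and of 8 markers of aerocytes (aCap), the other alveolar capillary type, 7 were higher and none lower (median 0.67). Of all genes tested 17.1% were lower and 18.5% higher. The part of these cell types in the level of Ntrk2 was not tested. Hyperoxia 3 had the highest Ntrk2 of its group. It also had the lowest epithelial, mural, fibroblast and aCap marker sums (aCap 1351 FPKM) and the highest gCap (1958 FPKM) and arterial (608 FPKM) sums. Without hyperoxia 3 the log2 fold change of Ntrk2 was -3.12. With a marker score (the mean log2 CPM of the tested epithelial, mural or fibroblast markers in each library) as a further term of the model it was -2.49, -2.99 and -2.90. These scores differ between the groups themselves, so here and below a fit with them cannot separate the score from hyperoxia. Glia and neurons are also known to express Ntrk2. Of 12 Schwann and neural markers 11 were under 1 FPKM in normoxia, while Cnp averaged 11.5 FPKM there and 11.9 FPKM in hyperoxia, and none of the 4 tested passed. Sox10, a defining factor of Schwann cells, had 3 counts in all of normoxia and 3 in all of hyperoxia. The part of these cells in the level of Ntrk2 was not tested.

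Ntrk2 belongs to the receptor tyrosine kinases, through which many growth factors signal. Among 54 genes of this class ordered by FPKM it ranked 12 or 13 in the normoxia libraries and 22 to 27 in the hyperoxia libraries. Of these genes 41 were tested, and 17 (Ntrk3 included) were higher and 7 (Ntrk2 included) lower in hyperoxia at an edgeR adjusted p under 0.05, beside 18.5% higher and 17.1% lower of all genes tested. When a change of 2-fold or more was also required, 10 were higher, beside 5.62% of all genes. Some of these, such as Egfr, Epha7 and Ntrk3, cleared the filter on low counts mainly through hyperoxia, so nothing is read from this count. Besides Ntrk2, the only one lower by that measure was Kit, the receptor for stem cell factor. The largest rises were those of Egfr (log2 fold change 2.41 ± 0.416 SE), Erbb3 (2.14 ± 0.483) and Epha7 (1.87 ± 0.41). No p-values are given here, since Egfr and Epha7 entered the test mainly through hyperoxia. These 3 genes encode the epidermal growth factor receptor, a relative of it that responds to neuregulins, and an ephrin receptor. All 3 were scarce in normoxia, at 0.506, 0.90 and 0.301 CPM, and Egfr and Erbb3 are widely expressed in epithelium, whose markers moved in the same direction. The part of those cells in the rises was not tested.

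**Figure D2:**
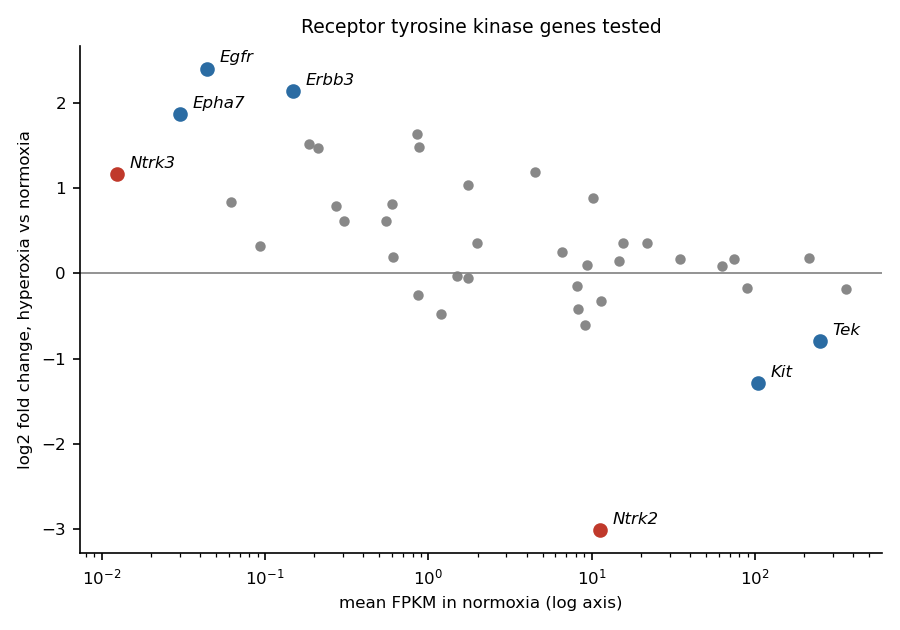
Log2 fold change of hyperoxia relative to normoxia against the mean FPKM in normoxia (log axis) for the 41 receptor tyrosine kinase genes tested, with Ntrk2 and Ntrk3 in red and other genes named in the text, plus Tek, in blue. Ntrk2 lies at 11.2 FPKM and -3.02, well below Kit at -1.29, and the largest rises belong to genes below 0.2 FPKM.

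Ntrk3, the receptor gene for neurotrophin 3 (ENSMUSG00000059146, chromosome 7, 78175959 to 78738012, minus strand), was close to the limit of detection. It had 10, 7, 2 and 7 counts in normoxia and 15, 17, 10 and 18 counts in hyperoxia. The groups overlapped, since normoxia 1 at 0.612 CPM lay above hyperoxia 3 at 0.572 CPM. Ntrk3 entered the test mainly through hyperoxia, so its p-value is not taken as support. Its log2 fold change of 1.17 (SE 0.413) only just passed (edgeR adjusted p = 0.0483). This call was lost under the test of DESeq2 (adjusted p = 0.0729) and when any of normoxia 2, 3 or 4 or hyperoxia 1, 2 or 4 was left out (adjusted p = 0.0834 to 0.112). Ngfr, which encodes p75 (ENSMUSG00000000120, chromosome 11, 95568818 to 95587735, minus strand), had 4 counts in all of normoxia and 10 in all of hyperoxia, with at most 4 in any library. A library without a count was found in each group, and no difference was detectable at this depth (exact two-sided permutation p = 0.2, adjusted 0.5 over 5 scarce genes).

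Sort1 (ENSMUSG00000068747, chromosome 3, 108284082 to 108361511, plus strand), whose product sorts proteins between the Golgi and endosomes besides binding neurotrophin precursors, was the other abundant member. It stood at 79.7, 77.0, 82.2 and 75.8 CPM in normoxia and at 126, 123, 82.7 and 113 CPM in hyperoxia. Hyperoxia 3 lay just above normoxia 3, and the other 3 hyperoxia libraries lay clearly higher. Sort1 rose from 78.7 ± 2.85 to 111 ± 19.7 CPM (SD, n = 4 each), a log2 fold change of 0.50 (SE 0.111, edgeR adjusted p = 0.0052), or 1.41-fold. Groups that did not overlap with the hyperoxia side higher were found for 17.8% of all genes tested. Without hyperoxia 3 the adjusted p was 2.37e-05, and with any other library left out it was 0.0106 to 0.0186. Adjusted for the epithelial score the log2 fold change turned to -0.37 (adjusted p = 0.295), and for the mural or fibroblast score it was 0.19 and 0.15 (adjusted p = 0.651 and 0.508). Because the scores differ between the groups, these values do not separate the score from hyperoxia. Exons of Gm12523 on the other strand cover 4.47% of its exon bases, but that gene averaged only 0.0142 CPM.

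**Figure D3:**
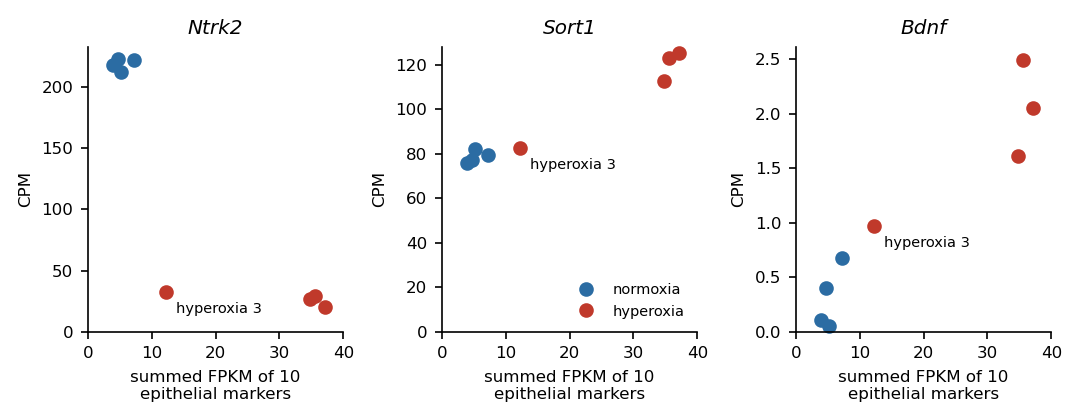
CPM of Ntrk2, Sort1 and Bdnf in each library against the summed FPKM of 10 epithelial markers in the same library, with normoxia in blue and hyperoxia in red. Hyperoxia 3, at 12.2 FPKM of epithelial markers, sits with the other hyperoxia libraries for Ntrk2 (32.4 CPM) but next to the normoxia libraries for Sort1 (82.7 CPM), and it is the lowest hyperoxia library for Bdnf (0.973 CPM).

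The order of the levels, which can be compared between genes only per length, changed between the groups. In normoxia Ntrk2 (11.2 ± 0.235 FPKM) and Sort1 (10.3 ± 0.394 FPKM) led, and their ranges did not overlap. In hyperoxia Sort1 (14.6 ± 2.57 FPKM) stood above Ntrk2 (1.39 ± 0.279 FPKM), with a ratio of 6.51 to 16.1 in the 4 libraries. In normoxia that ratio was 0.882 to 0.987. The exon length of Ntrk2 merges many transcripts, and with the longest coding transcript (8744 bases) in its place Ntrk2 came to 24.1 to 25.3 FPKM in normoxia, against 11.0 to 11.9 FPKM for Sort1 on the same basis. In hyperoxia they then came to 2.25 to 3.70 and 12.1 to 18.2 FPKM. By the deposited lengths all other members were below 0.5 FPKM in every library, with Ntf3 (0.233 ± 0.118 FPKM) above Bdnf (0.0494 ± 0.0456 FPKM), Ngfr (0.0161 ± 0.0132 FPKM) and Ntrk3 (0.0124 ± 0.00676 FPKM) in normoxia. In hyperoxia Bdnf led these 4 at 0.285 ± 0.104 FPKM, before Ntf3 at 0.17 ± 0.198 FPKM, and the ranges of these neighbours overlapped. Bdnf, Ngfr and Ntrk3 overlapped in normoxia, as did Ngfr and Ntrk3 in hyperoxia.

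The ligand genes were scarce in both groups. Bdnf (ENSMUSG00000048482, chromosome 2, 109674700 to 109727007, plus strand) had 11, 7, 1 and 2 counts in normoxia and 36, 44, 17 and 29 counts in hyperoxia. The groups did not overlap, the closest being hyperoxia 3 at 0.973 CPM and normoxia 1 at 0.674 CPM. Of all genes tested, 17.8% had groups that did not overlap with hyperoxia higher. Bdnf rose from 0.31 ± 0.285 to 1.78 ± 0.649 CPM (SD, n = 4 each), with a log2 fold change of 2.53 (SE 0.538, edgeR adjusted p = 0.00407). Since Bdnf entered the test mainly through hyperoxia, neither this p-value nor the gap between the groups is taken as support. Without normoxia 1 the log2 fold change was 3.20. The adjusted p was 0.934, 0.647 and 0.244 with the epithelial, mural and fibroblast score in the model, and the log2 fold change was then 0.33, 0.68 and 1.16. Exons of Gm45346 on the other strand cover 14.4% of its exon bases, and this gene had no count. Bdnf and Ntrk3 cleared the filter on low counts mainly through hyperoxia, so the 3 members besides Ntrk2 that were tested, all of which passed, cannot be read against the 35.6% of all genes that did.

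Ntf3 (ENSMUSG00000049107, chromosome 6, 126101412 to 126166910, minus strand), the gene of neurotrophin 3, had 7, 12, 4 and 5 counts in normoxia and 5, 2, 0 and 14 counts in hyperoxia. The highest and the lowest library were both in hyperoxia, and no difference was detectable (exact two-sided permutation p = 0.571, adjusted 0.714). Ntf5, which encodes the other TrkB ligand, had 1, 1, 0 and 1 counts in normoxia and 10, 14, 3 and 6 counts in hyperoxia. All hyperoxia libraries were higher, a pattern found for 17.8% of all genes tested, though Ntf5 was too scarce to be among those. It gave the smallest p that 4 against 4 libraries allow (exact two-sided permutation p = 0.0286), and the p adjusted over the same 5 genes was 0.143.

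Further genes of neurotrophin handling were more often higher than lower. Of 61 such genes besides the members, 46 were tested, and 18 (39.1%) were higher and 8 (17.4%) lower at an edgeR adjusted p under 0.05, beside 18.5% and 17.1% of all genes tested. Their median log2 fold change was 0.12, against -0.004 over all genes. When the epithelial, mural or fibroblast score was a covariate, 1, 4 and 11 of them passed. Over all genes, those that passed with a change of 2-fold or more fell from 1087 to 197, 382 and 590. The scores differ between the groups themselves, so nothing particular to these genes is read from this loss.

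Receptors of the sortilin family were higher where they could be tested, while 18.5% of all genes tested were higher. Sorl1, a sorting receptor of the endosome, went from 11.8 ± 5.52 to 24.1 ± 8.90 CPM (log2 fold change 1.02, edgeR adjusted p = 0.0351), and its call was lost when any of normoxia 1, 2 or 4 or hyperoxia 1, 2 or 4 was left out (adjusted p = 0.0592 to 0.0948). Sorcs2, which like sortilin can act with p75, stood at 2.35 ± 0.29 CPM in normoxia and rose by 2.06 on the log2 scale to 9.80 ± 3.90 CPM (adjusted p = 0.000478). Adjusted for the epithelial score, Sorl1 and Sorcs2 turned to -1.31 and -0.32 (adjusted p = 0.353 and 0.816). Sorcs1 had 4 counts in normoxia and 7 in hyperoxia, and Sorcs3 had none.

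Of 10 proteases that can cut neurotrophin precursors, or activate one that does, 7 were tested, 4 of them higher and none lower. Of all genes tested 18.5% were higher and 17.1% lower. The most abundant were Plat, the tissue plasminogen activator, and the convertase Pcsk5. Plat averaged 147 ± 20.2 CPM in normoxia against 270 ± 44.2 CPM in hyperoxia, a log2 fold change of 0.88 (adjusted p = 0.000335), while Pcsk5 stood at 235 ± 36.9 and 210 ± 7.12 CPM (adjusted p = 0.207). Plau, the urokinase gene, rose by 1.48 on the log2 scale (10.3 ± 1.03 CPM in normoxia, 28.9 ± 3.90 CPM in hyperoxia, adjusted p = 4.64e-06), and the convertase Pcsk6 by 1.08 (3.31 ± 0.639 and 6.98 ± 1.76 CPM, adjusted p = 0.00287). Adjusted for the epithelial score, the log2 fold changes of Plau and Pcsk6 were 1.32 and 0.996, and neither passed (adjusted p = 0.052 and 0.484).

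Among the adaptors that carry the signal inside the cell, 1 gene stood out. Of 22 Trk adaptors and effectors 19 were tested, with 4 (21.1%) higher and 5 (26.3%) lower, and the median of their log2 fold changes was 0.03. These shares are near the 18.5% higher and 17.1% lower of all genes tested. The most abundant, Crk (300 ± 12.6 and 297 ± 8.97 CPM) and Plcg1 (418 ± 21.9 and 444 ± 13.1 CPM), the phospholipase C docked by Trk receptors, did not pass (adjusted p = 0.811 and 0.181). Shc4, a Shc family adaptor, was the only one past the fold threshold, with 1.53 ± 0.729 CPM in normoxia, 8.96 ± 1.02 CPM in hyperoxia and a log2 fold change of 2.55 (adjusted p = 5.72e-05). It passed in each of 22 alternatives, with adjusted p of up to 0.0444. Exons of Eid1 on the other strand cover 6.38% of the exon bases of Shc4, Eid1 averaged 80.7 CPM, and the use of strand in counting is not stated, so part of the Shc4 count is uncertain. Eid1 had a log2 fold change of 0.20.

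Of 13 adaptors and partners of p75, 10 were tested, with 4 higher and 1 lower, none past the fold threshold. Over all genes tested the shares were 18.5% higher and 17.1% lower. Arhgdia rose by 0.35 on the log2 scale (505 ± 35.0 and 642 ± 14.0 CPM, adjusted p = 0.000644), and Maged1 stood at 211 ± 1.79 and 198 ± 6.17 CPM (adjusted p = 0.0866). Of 9 genes of Trk traffic and attenuation 8 were tested, with 4 higher and 2 lower. Ehd4, an endosomal protein linked to Trk uptake, and Gipc1, an adaptor of membrane traffic, had log2 fold changes of 0.13 and 0.19 (adjusted p = 0.0445 and 0.0167). Ptprf, a receptor phosphatase also known as LAR, averaged 15.3 ± 2.74 CPM in normoxia against 61.6 ± 23.0 CPM in hyperoxia, a log2 fold change of 2.01 (adjusted p = 0.000306) that turned to -0.31 once adjusted for the epithelial score (adjusted p = 0.743).

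**Figure D4:**
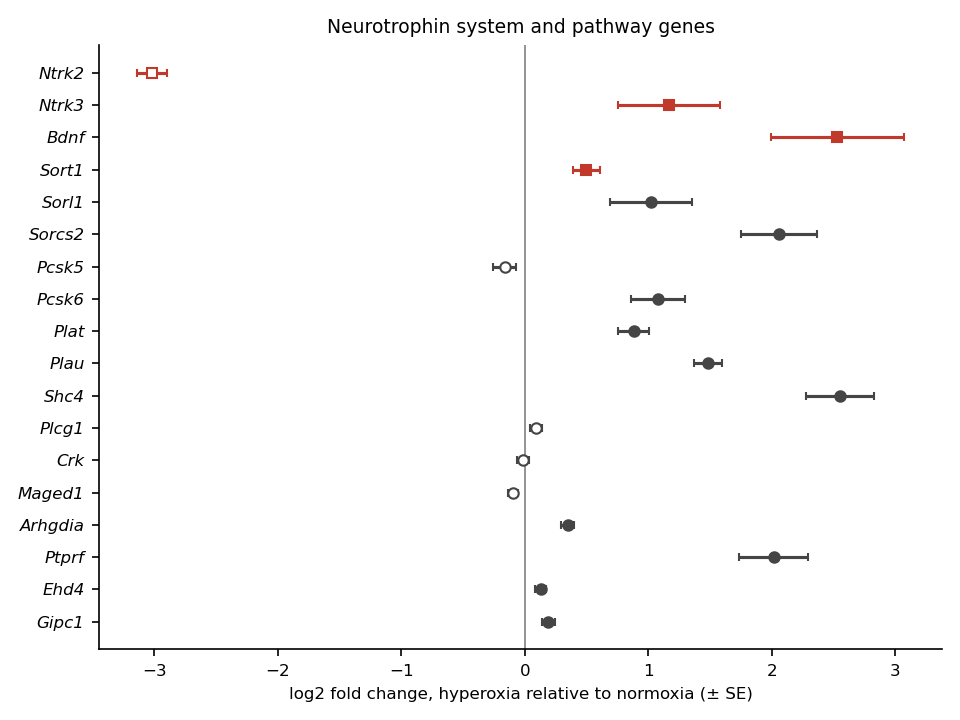
Log2 fold change (± SE) of hyperoxia relative to normoxia for the 4 tested members (red squares) and the pathway genes named in the text (grey circles), filled where the edgeR adjusted p was under 0.05 and open where it was not or, for Ntrk2, where no test is given. Ntrk2 at -3.02 stands alone on the left, and Shc4 at 2.55 and Bdnf at 2.53 lie farthest to the right.

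The genes whose profile over the 8 libraries was most like that of Ntrk2 were sought among 9076 protein-coding genes with a mean CPM of 10 or more, by the root mean square distance between log2 CPM values centred on each gene's mean. The nearest were Sparcl1 (distance 0.616), Glb1l3 (0.658), Wif1 (0.684), Cyp26b1 (0.726) and Ankrd63 (0.742). Wif1 encodes a secreted Wnt inhibitor and Cyp26b1 an enzyme that breaks down retinoic acid. Their log2 fold changes were -1.85, -1.94, -1.88, -1.61 and -1.83. That none fell as far as Ntrk2 was fixed in advance, since Ntrk2 was chosen as the largest fall. The distance is not scaled to the size of a change, so it favours other genes with large falls. Sparcl1, for example, averaged 729 ± 38.2 CPM in normoxia against 203 ± 41.1 CPM in hyperoxia (SD, n = 4 each). These genes were picked by their levels, so no test is given.

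The members differed in how far other processing moved them. The log2 fold change of Ntrk2 stayed between -3.12 and -2.36 over 22 alternatives, while that of Sort1 ran from -0.37 to 0.615 and that of Bdnf from 0.29 to 3.20.

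**Figure D5:**
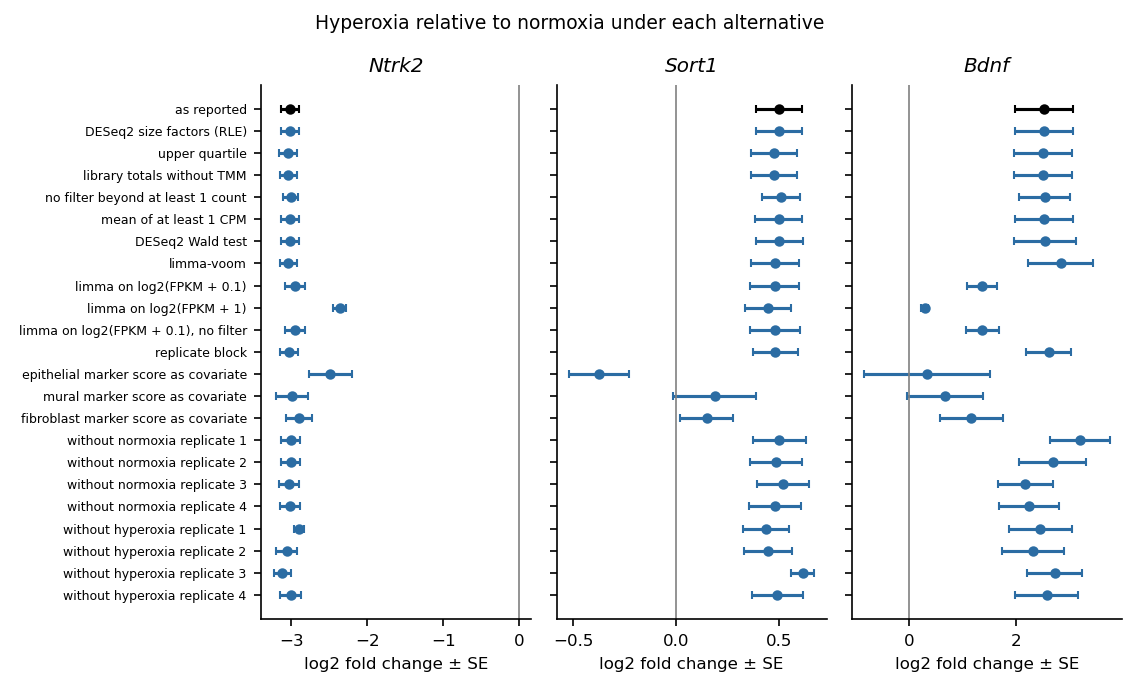
Log2 fold change (± SE) of Ntrk2, Sort1 and Bdnf as reported (black) and under each of 22 alternatives (blue), with the vertical line at 0. Ntrk2 stays between -3.12 and -2.36, Sort1 turns to -0.37 with the epithelial marker score as covariate, and the low values of Bdnf at 0.29 and 0.33 come with a pseudocount of 1 FPKM and with the epithelial score.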

How the data were processed

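The authors deposited a table of whole-number gene counts and a table of FPKM for the same libraries, per the file headers. The submitters' processing notes name HISAT2 2.0.5, featureCounts 1.5.0-p3 and build mm10; strand use and multiply mapped reads are not given in the sources used here. FPKM equalled the count over gene length and library total within a relative deviation of 4e-08, times 1 constant per library (0.974 to 1.02), so it served only to compare levels between genes.

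The quasi-likelihood F-test in edgeR 4.0.16 (R 4.3.3, TMM, filterByExpr, group as only term) was run on the counts of 15564 genes, with Benjamini-Hochberg adjustment over all of them. A gene passed at an adjusted p under 0.05. DESeq2, the tool of the study, was run as an alternative in version 1.42.0, as was limma 3.58.1. A family of 5 scarce genes was compared by exact permutation, and 3 of them are reported here. Scripts were tested on simulated data.

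The members and all lists were chosen with earlier results of these data known. Named genes were the members, in each pathway list the genes past both thresholds and the 2 most abundant, the 3 largest changes each way among called receptor tyrosine kinases, 5 genes nearest to Ntrk2, and genes that overlap a member. Cdh5, Sox10, Cnp and Tek were named after their values were seen. In the GENCODE M21 annotation 54495 of 54532 gene IDs were found, and 4 of 6 members in the RefSeq promoter table. Libraries of 1 group differed by more than counting noise (chi-square per degree of freedom 5.08 to 17.9), so each was kept as a replicate.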

Additional observations from a re-analysis of the deposited data

Results flagged for a closer look

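In 4 of 40 groups of 4 libraries 1 library lay far from the others, where chance gives about 1 in 20. Hyperoxia 3 was low in the summed FPKM of epithelial markers (12.2, against 34.7 to 37.1 in the other hyperoxia libraries) and of alveolar type 1 markers (73.8, against 169 to 187). Normoxia 1 was high in mural markers (23.9, against 14.0 to 14.7 FPKM). Hyperoxia 1 was high in Schwann and neural markers (15.1, against 13.4 to 13.6 FPKM), a sum that Cnp dominates. None of the 6 members had such a library in either group.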

How the results depend on the processing

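Ntrk2 was lower and Bdnf higher in hyperoxia under all 22 alternatives, and Ntrk3 higher under the 21 that could test it (not with a minimum mean of 1 CPM). Ntrk2 was chosen by its fall, and Bdnf and Ntrk3 entered the test mainly through hyperoxia, so a shared direction adds no support. For Ntrk3 it includes values near 0, such as 0.0182 (SE 0.677) with the mural score, and in 16 of the 21 Ntrk3 did not pass. The marker scores differ between the groups themselves. With the epithelial, mural and fibroblast score, 0, 0 and 0 of the members besides Ntrk2 passed, against 3, and 1, 4 and 11 of the other pathway genes, against 26. Over all genes 197, 382 and 590 calls were left of 1087, where a call also needed a change of at least 2-fold. The counts of members and pathway genes did not need it, so these losses cannot be set side by side. In the same order the log2 fold changes were 0.332, 0.675 and 1.16 for Bdnf, 0.0681, 0.0182 and 0.32 for Ntrk3, and -0.373, 0.188 and 0.149 for Sort1. The epithelial score alone moved Ntrk2 to -2.49 and reversed Sorl1 (-1.31), Sorcs2 (-0.324) and Ptprf (-0.312). The cause was not tested.

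Limma on log2(FPKM + 1) gave 330 calls and -2.36 for Ntrk2, since the pseudocount shrinks low values. Without the fold threshold 5535 genes passed. Ntrk3 was no longer past the threshold with the upper quartile or library totals (1.15 and 1.15), without a filter (1.18), with DESeq2 (1.18), on log2(FPKM + 0.1) with and without the filter (0.187 and 0.187) and on log2(FPKM + 1) (0.022). With 1 library left out it ran from 0.861 to 1.48, Bdnf from 2.18 to 3.20, Sort1 from 0.436 to 0.615 and Ntrk2 from -3.12 to -2.90.

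Replicate numbers were shared by the groups, but only 1 of 4 same-numbered pairs had deviations correlated above 0.1 (range -0.206 to 0.119). The numbers were therefore not used as pairs in the main test, though 4 pairs are too few to show that they share no origin. With the replicate number as a block 1057 genes were called, Ntrk2 was -3.03, Sort1 0.481, Bdnf 2.62 and Ntrk3 1.21, and 23 of the other pathway genes passed. Sorl1 lost its call (1.06, adjusted p = 0.0569). Members below 1 CPM are limited by depth, with under 20 counts per library for Ntrk3, Ntf3 and Ngfr.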
